A study of Mus musculus with 4 samples.

Results

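2610008E11Rik, AI987944, Gm49345 and Gm5141 are 4 of the 21911 mouse protein-coding genes examined, and each still has the provisional name of a cDNA clone (Rik), an expressed sequence (AI) or a gene model (Gm). They were chosen by their values in the H3K36me3 peak lists described here. 2610008E11Rik and Gm49345 were among the 10 coding genes with the most bases under peaks of the Setd2 knockout, AI987944 and 2610008E11Rik held the first and the fourth highest of its peaks by fold enrichment, and Gm5141 had the most bases under knockout peaks of any coding gene without a control peak. These rankings are therefore a description and no finding. None of the 4 has a symbol of the zinc finger series (Zfp, Zscan, Zkscan or Zik), but each coding sequence holds between 9 and 18 C2H2 zinc fingers, which the choice did not use.

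The cells were primary tubular epithelial cells (PTECs) taken from the kidney cortex of C57BL/6 mice, and ChIP-seq, in which DNA bound to an antibody target is sequenced, mapped the histone mark H3K36me3 in them. Setd2 was floxed on both alleles in all PTECs. Those without Cre (SETD2fl/fl) are called control, and those that also had KspCre on 1 allele (SETD2fl/fl KspCre/+) are called Setd2-KO. With 1 ChIP library and 1 input per genotype, no value below has a replicate, no test between the genotypes was made, and intervals cover counting error only. The Ksp promoter is active in renal tubular epithelium, and the share of cells in which it had removed Setd2 was not measured here. The floxed gene itself, Setd2, had 5 control peaks over 3077 bp and 0 Setd2-KO peaks. Of all coding genes with a control peak, only 34.5% also had a Setd2-KO peak, so this is no measure of the knockout. As a check of the cell type, 7 of 8 proximal tubule markers had control peaks and 3 of 8 had Setd2-KO peaks, with Slc34a1 and Slc27a2 the most covered, while Slc5a2 had none. None of the 14 markers of other kidney segments, podocytes, endothelium, fibroblasts or immune cells carried a peak in either list. Over all coding genes, 19.5% had a control peak and 7.37% a Setd2-KO peak. With so low a share in the Setd2-KO list, the lack of such peaks in 14 genes says little about the cells.

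SETD2 adds the third methyl group to lysine 36 of histone H3 as RNA polymerase II elongates, and the mark therefore usually lies in the bodies of transcribed genes and rises toward their ends. Genes of KRAB zinc finger proteins, which stand in large clusters in the mouse genome, code for a KRAB box in short early exons and for a row of C2H2 fingers in a long last exon. The fingers bind DNA, and the KRAB box recruits the co-repressor TRIM28, which brings the H3K9 methyltransferase SETDB1. The last exons of human genes of this class are known to carry H3K9me3 and H3K36me3 together.

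All 4 genes had this architecture on the minus strand of GRCm38 in GENCODE M21. 2610008E11Rik (ENSMUSG00000060301.6, chr10:79064374-79097600) has 6 exons and 14 fingers, AI987944 (ENSMUSG00000056383.10, chr7:41372923-41393379) 4 exons and 9 fingers, Gm49345 (ENSMUSG00000114923.1, chr13:67592159-67637769) 4 exons and 18 fingers, and Gm5141 (ENSMUSG00000091183.5, chr13:62772200-62785808) 4 exons and 15 fingers. In each, every finger was coded by the last exon. Gm49345 is annotated as a readthrough transcript with an incomplete coding sequence that runs through the neighbouring genes Zfp729a and Zfp729b, so its peaks cannot be told apart from theirs. In each gene, exon 2 was wholly coding, 127 bases long and coded for a KRAB A box. The 4 exons are shown because they place genes without a family name in a gene family. Capitals mark the 54 bases that were the same in all 4 at the same position.
2610008E11Rik exon 2, chr10:79094431-79094557, minus strand: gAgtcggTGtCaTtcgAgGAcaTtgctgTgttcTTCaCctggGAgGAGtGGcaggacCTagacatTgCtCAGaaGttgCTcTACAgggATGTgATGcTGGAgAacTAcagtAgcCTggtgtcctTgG
AI987944 exon 2, chr7:41376746-41376872, minus strand: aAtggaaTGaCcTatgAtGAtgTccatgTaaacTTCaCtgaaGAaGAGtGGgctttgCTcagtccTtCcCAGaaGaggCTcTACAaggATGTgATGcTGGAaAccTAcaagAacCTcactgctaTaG
Gm49345 exon 2, chr13:67596649-67596775, minus strand: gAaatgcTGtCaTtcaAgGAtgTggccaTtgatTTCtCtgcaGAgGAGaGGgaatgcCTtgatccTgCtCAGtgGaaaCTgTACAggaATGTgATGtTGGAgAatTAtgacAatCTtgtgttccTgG
Gm5141 exon 2, chr13:62776963-62777089, minus strand: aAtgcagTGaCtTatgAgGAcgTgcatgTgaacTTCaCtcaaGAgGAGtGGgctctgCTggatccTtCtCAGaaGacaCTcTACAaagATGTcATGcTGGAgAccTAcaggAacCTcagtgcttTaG
The closest pair was AI987944 and Gm5141, although they lie on different chromosomes, with 105 of 127 bases in common (82.7%). The 5 other pairs shared 55.1% to 64.6%. Next, 1 finger under a Setd2-KO peak is shown for each gene, with the codons of the 4 zinc-binding cysteines and histidines in capitals. In each case this is the finger nearest the summit (the base of highest signal) of the gene's Setd2-KO peak of highest fold enrichment.
2610008E11Rik finger 13 of 14, chr10:79066666-79066728, minus strand: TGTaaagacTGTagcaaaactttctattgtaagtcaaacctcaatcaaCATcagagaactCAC
AI987944 finger 3 of 9, chr7:41374870-41374932, minus strand: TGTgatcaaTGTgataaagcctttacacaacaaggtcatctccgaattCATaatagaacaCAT
Gm49345 finger 18 of 18, chr13:67592171-67592233, minus strand: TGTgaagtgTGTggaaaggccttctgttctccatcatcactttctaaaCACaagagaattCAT
Gm5141 finger 1 of 15, chr13:62774805-62774867, minus strand: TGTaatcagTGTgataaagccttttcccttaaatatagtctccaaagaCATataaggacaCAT
The summit lay inside the finger of AI987944 and 6 bases from that of 2610008E11Rik. In Gm49345 the summit was 333 bases beyond finger 18, outside the gene model and inside Zfp729b. Finger 1 of Gm5141 was 1603 bases from the summit of its strongest peak, which is intronic, and 27 bases from the summit of its weaker peak, which is the one that covers it. A Setd2-KO peak covered all 63 bases of each finger. A control peak did so in 2610008E11Rik, AI987944 and Gm49345 and covered 0 bases of the finger in Gm5141. These sequences were read from the RefSeq GRCm38.p6 genome.

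The first question was how much of each gene was under called peaks in the 2 genotypes. Peaks overlapped 3 of the 4 genes in control PTECs and all 4 in Setd2-KO PTECs. Over all coding genes, 19.5% had a peak in control PTECs, 7.37% in Setd2-KO PTECs, and 0.639% in Setd2-KO PTECs alone. Since both lists chose the genes, nothing is read from this contrast. In 2610008E11Rik, 17 control peaks lay over 14719 bp (44.3% of the gene) and 9 Setd2-KO peaks over 9386 bp (28.2%). AI987944 had 5 control peaks over 4728 bp (23.1%) and 5 Setd2-KO peaks over 4415 bp (21.6%). Gm49345 had 8 control peaks over 8374 bp (18.4%) and 7 Setd2-KO peaks over 7132 bp (15.6%). Gm5141 had 0 control peaks, and its 2 Setd2-KO peaks covered 1051 bp (7.72%). The covered length in Setd2-KO PTECs was thus 63.8% of the control length in 2610008E11Rik, 93.4% in AI987944 and 85.2% in Gm49345. The median over the 1475 coding genes marked in both lists was 36.6%, and over the 195 zinc finger genes among them 74.1%. The lowest share of the 3 genes was thus under the zinc finger median and the other 2 were above it. Setd2-KO coverage entered the choice of the genes, so these places are a description and no finding. The covered bases of Gm49345 are also counted in Zfp729a and Zfp729b, which are among the zinc finger genes.

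**Figure D1:**
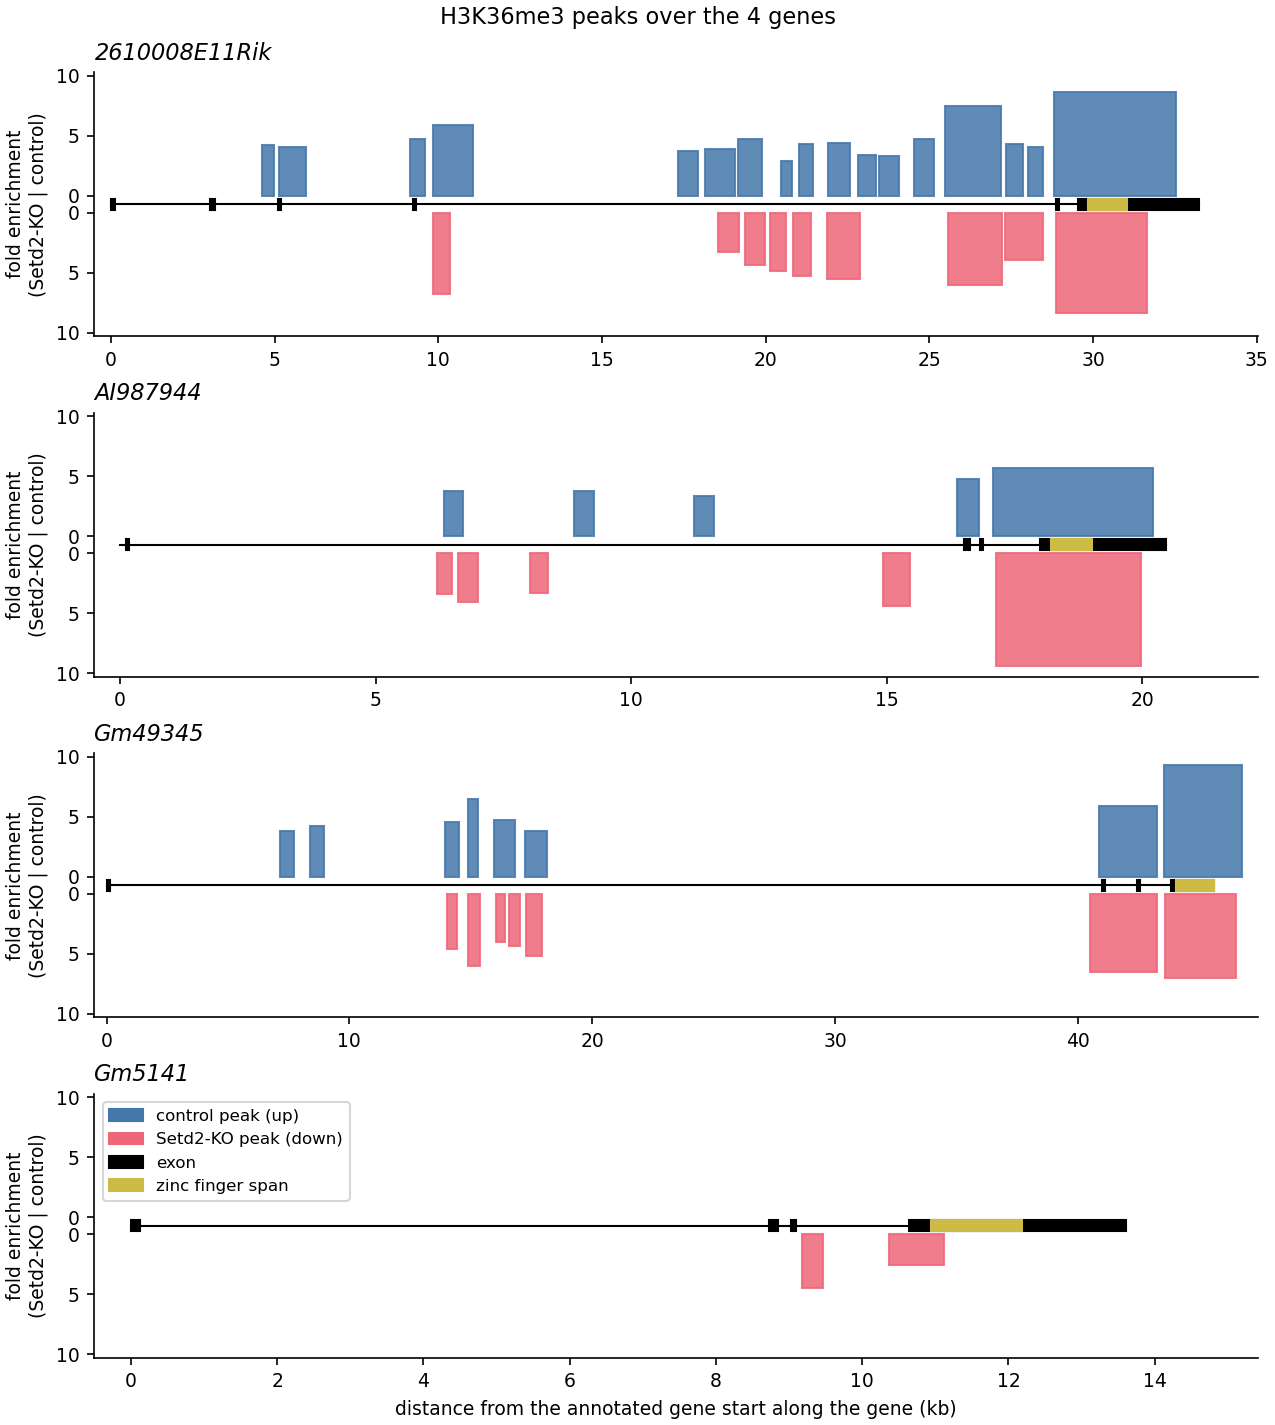
Peaks over the 4 genes, by distance from the annotated gene start (kb). Boxes above the gene line are control peaks and boxes below it Setd2-KO peaks, with height giving fold enrichment and width the peak's length. Exons are black and the zinc finger span is yellow. The widest peaks of 2610008E11Rik, AI987944 and Gm49345 by whole length lie over the finger exon in both genotypes, and Gm5141 has only its 2 Setd2-KO peaks. Those of Gm49345 run past the end of its gene model.

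Of the 30 control peaks in the 4 genes, 19 (63.3%, exact 95% CI 43.9 to 80.1) overlapped a Setd2-KO peak by 1 bp or more, against 12.9% of all control peaks. In the other direction 19 of 23 Setd2-KO peaks (82.6%, exact 95% CI 61.2 to 95.05) shared bases with a control peak, against 61.3% of all Setd2-KO peaks. The genes were chosen for their Setd2-KO signal, so this contrast is a description. The intervals treat peaks as independent, although peaks of 1 gene are not. In 2610008E11Rik all 9 Setd2-KO peaks overlapped a control peak, and 11 of 17 control peaks overlapped a Setd2-KO peak. In Gm49345 the numbers were 7 of 7 and 6 of 8. In AI987944 the finger exon peak was shared, whereas only 2 of its 4 other Setd2-KO peaks and 1 of its 4 other control peaks had a partner. By length, 55.3% of the control bases of 2610008E11Rik, 65.1% of those of AI987944 and 77.0% of those of Gm49345 were also under a Setd2-KO peak.

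By whole length, the widest peak of each of these 3 genes lay over the zinc finger exon in both genotypes. The peaks of 2610008E11Rik were 3710 bp (control) and 2773 bp (Setd2-KO), of AI987944 3130 bp and 2827 bp, and of Gm49345 3207 bp and 2933 bp. The Gm49345 peaks ran past the end of the gene model, with 2060 bp (control) and 2018 bp (Setd2-KO) inside it. Counting only bases inside the model, its next peak, with an intronic summit, was wider (2367 bp and 2761 bp). The stretch from the first to the last finger was wholly covered in both genotypes in 2610008E11Rik (1167 bp), AI987944 (804 bp) and Gm49345 (1575 bp). In Gm5141, 14.0% of its 1239 bp was covered in Setd2-KO PTECs and none in control PTECs. Among the other clone-named zinc finger genes the stretch was wholly covered in 5 of 15 with a control peak and in 3 of 16 with a Setd2-KO peak, and not covered at all in 5 and 6. As the 4 genes were chosen for their Setd2-KO peaks, this contrast is a description. Coverage of the earlier exons was mixed. Exon 2 of AI987944, shown above, was wholly under a control peak and had 0 bases under a Setd2-KO peak, and exon 2 of Gm49345 was wholly covered in both. Exon 2 of 2610008E11Rik and of Gm5141 was uncovered in both. In 2610008E11Rik, exon 3 (93 bases) was 69.9% covered in control and uncovered in Setd2-KO PTECs, and exon 4 (93 bases) was wholly covered in control and uncovered in Setd2-KO PTECs.

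When each gene was cut into 4 equal segments, coverage was highest in the last one. In the segment nearest the start, 14.3% of 2610008E11Rik and 10.1% of Gm49345 were under control peaks, and no base of any of the 4 genes was under a Setd2-KO peak. Over all marked zinc finger genes, this segment held only 4.85% of the bases under control and 2.80% of those under Setd2-KO peaks. The same shares were 7.92% and 9.35% over the other marked coding genes. Nothing particular to the 4 genes is read from this. In the last segment, control and Setd2-KO coverage were 79.8% and 67.0% in 2610008E11Rik, 69.6% and 57.6% in AI987944, and 38.8% and 41.9% in Gm49345. For Gm5141 the last segment had 22.1% under a Setd2-KO peak. Of all bases under peaks in the 4 genes, the last segment held 52.5% in control and 63.9% in Setd2-KO PTECs. The same share was 50.8% and 58.3% over all marked zinc finger genes, and 42.1% and 40.9% over the other marked coding genes.

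**Figure D2:**
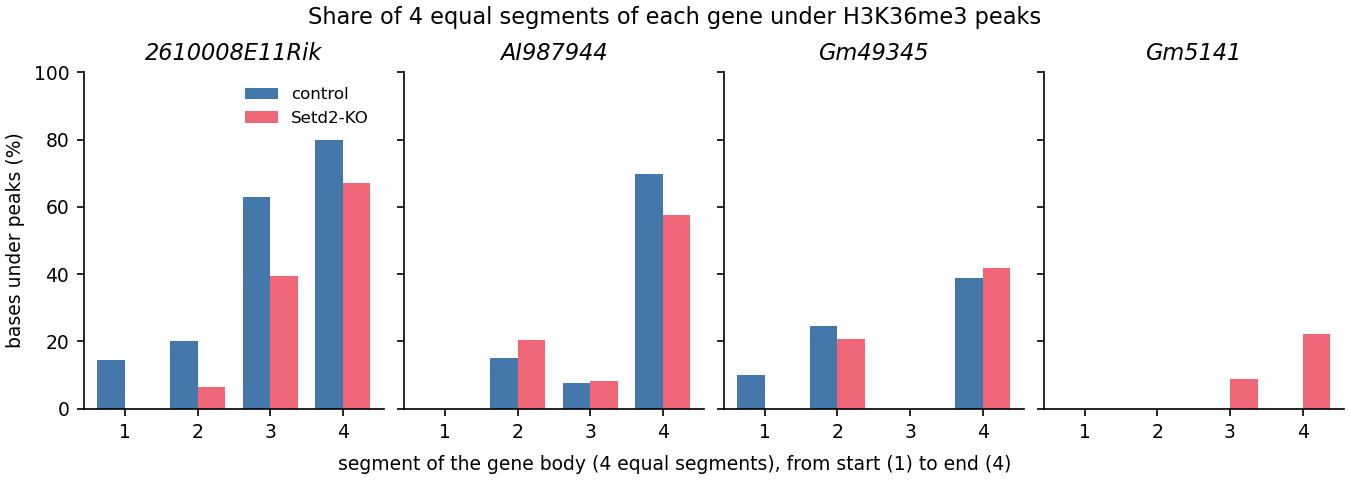
Percent of the bases in each of 4 equal segments of the gene body that lay under peaks, from the start (1) to the end (4) of the gene, in control (blue) and Setd2-KO PTECs (red), 1 ChIP library each. Segment 1 has control coverage in 2610008E11Rik and Gm49345 and no Setd2-KO coverage in any gene. Segment 4 is the most covered segment in every gene and list with a peak. The segments of Gm49345 run over Zfp729a and Zfp729b and not along 1 gene.

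Peak strength was compared through the 3 values that the lists allow: the pileup (how many extended fragments cover the summit), the local background (the fragments expected there), and fold enrichment, which is their ratio after 1 is added to each. The finger exon peak of AI987944 had the highest fold enrichment of the 2732 Setd2-KO peaks, 9.42, while the control peak at the same site had 5.71 and ranked number 245 of 12242. The pileup was however 74 in Setd2-KO and 79 in control PTECs. The local background was 6.96 and 13.01, respectively. The larger fold enrichment in Setd2-KO PTECs thus came with a slightly lower pileup and a lower background. By pileup, the same peak ranked number 33 in the Setd2-KO list and number 102 in the control list. Because background is an estimate from the libraries used for calling and each genotype had 1 input, whether it differs between genotypes could not be tested.

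At the finger exon of 2610008E11Rik the values were closer. Control and Setd2-KO pileup were 71 and 62, the background 7.29 and 6.54, and the fold enrichment 8.68 and 8.35. For the peak at the end of Gm49345, pileup was 70 and 61, background 6.58 and 7.80, and fold enrichment 9.37 and 7.04. In these 3 pairs of peaks the summit pileup was thus 5 to 9 fragments lower in Setd2-KO than in control PTECs. The exact Poisson intervals of control and Setd2-KO pileup overlapped in each pair. Overlap of intervals is not a test, and neither a difference nor equality is read from it. The intervals also treat the summit as a fixed position, although it is the base of highest signal. The intervals were 55.5 to 89.6 and 47.5 to 79.5 in 2610008E11Rik. In AI987944 they were 62.5 to 98.5 and 58.1 to 92.9, and in Gm49345 54.6 to 88.4 and 46.7 to 78.4. The summits of a pair also lay at different bases (79067781 and 79066660 in 2610008E11Rik, 67592698 and 67591838 in Gm49345). Over all peaks in the 4 genes, the median fold enrichment was 4.30 for the 30 control peaks and 4.64 for the 23 Setd2-KO peaks, beside 3.83 and 3.85 over all peaks of the lists, and the median pileup was 36 in both. Fold enrichment in Setd2-KO PTECs entered the choice of the genes, so this contrast is a description. The lowest background in each list, which scales with depth, was 6.58 and 6.54.

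**Figure D3:**
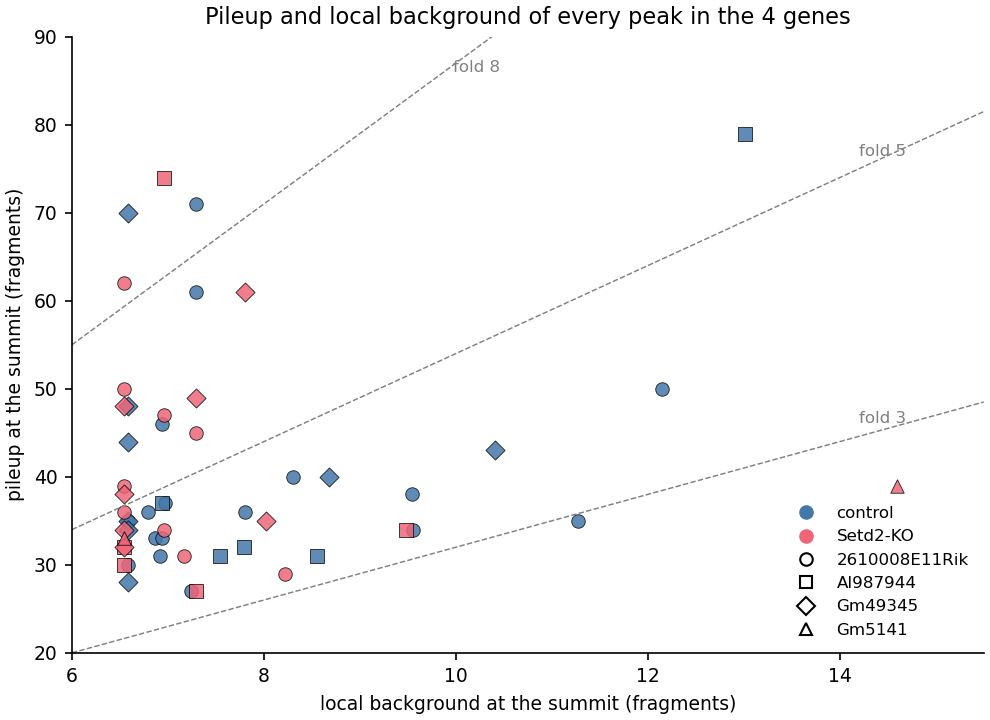
Pileup (fragments) against local background (fragments) at the summit of every peak in the 4 genes, with control peaks in blue, Setd2-KO peaks in red and 1 marker shape for each gene. Dashed lines join points of equal fold enrichment (3, 5 and 8). The finger exon peaks of AI987944 (squares, pileup 79 in control and 74 in Setd2-KO) are at similar height but at a background of 13.01 and 6.96, and a Gm5141 peak (triangle) has the highest background, 14.6.

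Gm5141 is the gene with Setd2-KO peaks alone. Its first Setd2-KO peak (chr13:62774694-62775445) ran over the start of the finger exon with a pileup of 39, a local background of 14.6, a fold enrichment of 2.57 and a −log10 q of 4.14, where the list ends at 3.08. The second (chr13:62776339-62776637) was intronic, with a pileup of 33, a background of 6.54, a fold enrichment of 4.51 and a −log10 q of 9.29. The nearest control peak was 92642 bp away from the second peak and 93834 bp from the first. The control list holds called peaks only, so a signal under its limit cannot be seen, and these values do not show that the mark was absent in control PTECs. Which filter set that limit is not known, since the lists hold peaks below the fold enrichment that the study states. The lowest fold enrichment was 1.52 in the control and 1.20 in the Setd2-KO list. With a fold enrichment of at least 5 required, Gm5141 had 0 peaks in either list. Of the 4 Setd2-KO peaks in the 4 genes that shared no base with a control peak, this intronic peak had the highest fold enrichment, and it is therefore shown whole, with the summit base in capitals.
Gm5141 intronic peak, chr13:62776339-62776637, minus strand: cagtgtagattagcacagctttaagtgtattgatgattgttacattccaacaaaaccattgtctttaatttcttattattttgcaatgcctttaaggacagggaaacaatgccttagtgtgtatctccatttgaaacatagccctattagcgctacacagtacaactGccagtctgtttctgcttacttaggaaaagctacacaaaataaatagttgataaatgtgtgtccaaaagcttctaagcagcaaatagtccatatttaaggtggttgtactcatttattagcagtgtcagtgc

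How firmly a peak can be placed depends on how often its sequence recurs in the genome, and zinc finger genes resemble each other. For the 75-base reads used here, at least 90% of 75-base words were unique in all peaks of 2610008E11Rik, AI987944 and Gm5141 and in 6 of 8 control and 4 of 7 Setd2-KO peaks of Gm49345. With 32-base words, a stricter measure, fewer than 90% were unique in 12 of the 30 control and 13 of the 23 Setd2-KO peaks. These included both peaks of Gm5141 (66.9% and 82.1%), 4 of 5 peaks of AI987944 in each list and 7 of 8 control and 6 of 7 Setd2-KO peaks of Gm49345, but only 1 peak of 2610008E11Rik in each list. By 32-base words 2610008E11Rik thus had the smallest share of repeated peaks, while at the read length it did not differ in this count from AI987944 and Gm5141.

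The second question was what the neighbours of these genes carried. Counting coding genes with any base within 500 kb, 72 neighbours were found, of which 32 (44.4%) were marked in control and 31 (43.1%) in Setd2-KO PTECs. Of the 34 zinc finger neighbours, 26 had a peak in both lists, and of the 38 others 6 and 5 were. Over the whole genome, 40.2% of zinc finger genes had control and 30.4% Setd2-KO peaks, beside 19.5% and 7.37% of all coding genes. Several neighbours overlap each other and share peaks, so these counts are not of independent genes. Zfp729a and Zfp729b are counted as marked neighbours although their peaks are those of Gm49345, which was chosen by them. The neighbourhoods differed strongly among the 4 genes.

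2610008E11Rik stood alone within 500 kb. None of its 21 coding neighbours there had a peak in either list, and none was a zinc finger gene. This depends on the window. Within 1 Mb, 14 of its 65 coding neighbours had a control peak and 5 a Setd2-KO peak, beside 19.5% and 7.37% of all coding genes. None of the 65 was a zinc finger gene. On its end side lie the olfactory receptor genes Olfr57, Olfr1351, Olfr1352 and Olfr1353, which are expressed in sensory neurons of the nose, at distances of 28.1 to 93.0 kb. On its start side lies the vomeronasal receptor gene Vmn2r80 at 51.2 kb. Within the window of 500 kb on each side, 17 of 18 control peaks and 9 of 10 Setd2-KO peaks lay in 2610008E11Rik itself, and the remaining peak in each list lay outside coding genes.

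AI987944 had 11 coding neighbours, of which 4 had a peak in both lists. The nearest, the vomeronasal receptor gene Vmn2r57 at 2.6 kb, had none, and Gm5592 at 82.7 kb had none. AW146154, with 12 fingers, had 6 control peaks over 4689 bp and 2 Setd2-KO peaks over 3195 bp, at 85.5 kb. Gm20449, a gene model without fingers that starts 6.0 kb away and runs over AW146154, had the same peaks. Zfp788, with 23 fingers, had 4200 bp under control and 3383 bp under Setd2-KO peaks, and 2610021A01Rik, with 15 fingers, 701 bp and 327 bp. The fourth zinc finger gene in the window had none. All marked neighbours of AI987944 lie on its start side.

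Gm49345 lay within a dense zinc finger cluster of chromosome 13. Of 30 coding neighbours, 22 had peaks in both lists and 0 in only one, and 25 of the 30 were zinc finger genes. Zfp729b, which it overlaps by 17549 bp, had 5574 bp under control and 5694 bp under Setd2-KO peaks, and Zfp729a, which it overlaps by 25007 bp, had 3947 bp and 2353 bp. All control and Setd2-KO bases of Gm49345 lay inside these 2 genes, 4427 bp and 4779 bp in Zfp729b and 3947 bp and 2353 bp in Zfp729a. Nothing was left in the 3055 bp between them. Zfp748, at 38.3 kb, had 4258 bp and 3308 bp, Zfp87, at 66.0 kb, 3475 bp and 1807 bp, and Zfp58, at 91.6 kb, 4022 bp and 3273 bp. Gm26965 runs over Zfp87 and Zfp58 and carries the peaks of both (6578 bp and 4349 bp). On the other side Zfp738, at 20.9 kb, had 1504 bp and 291 bp, and Zfp65, at 67.5 kb, had 1690 bp and 2200 bp. Coverage was thus larger in Setd2-KO than in control PTECs in Zfp729b and Zfp65 and smaller in Zfp729a, Zfp748, Zfp87, Zfp58 and Zfp738. At the far edge of the window Zfp708 and the overlapping Gm28557 each had 3923 bp and 3393 bp, Zfp759 had 3394 bp and 2335 bp, and Zfp595, nearer by, had 2916 bp and 2873 bp.

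Of the 10 coding neighbours of Gm5141, 6 were marked in control PTECs and 5 in Setd2-KO PTECs. The nearest was Platr25, annotated as coding and with 10 fingers, at 11.5 kb, which had 2309 bp under control and 1332 bp under Setd2-KO peaks. On the other side lie Fbp2, at 51.1 kb with no peak, and Fbp1, at 78.9 kb, with 1179 bp in 3 control peaks and 0 in Setd2-KO PTECs. Both encode fructose-1,6-bisphosphatase, an enzyme of gluconeogenesis, and the Fbp1 form is that of liver and kidney. Fbp1 was the only one of the 72 neighbours with peaks in just one list. Gm49359 (8 fingers) had 3391 bp and 2448 bp, and Zfp935, which overlaps it, 3049 bp and 2360 bp. 2010111I01Rik and Fancc share 1 stretch with 1592 bp under control and 289 bp under Setd2-KO peaks. Both genes reach into the window and count as marked, but these peaks lie more than 500 kb from Gm5141. Of the 9 peaks of each list inside the window, 3 control peaks and 1 Setd2-KO peak lay outside coding genes. None of the 10 had Setd2-KO peaks alone, beside 0.639% of all coding genes. Gm5141 itself was chosen for having Setd2-KO peaks alone, so nothing is read from this contrast.

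**Figure D4:**
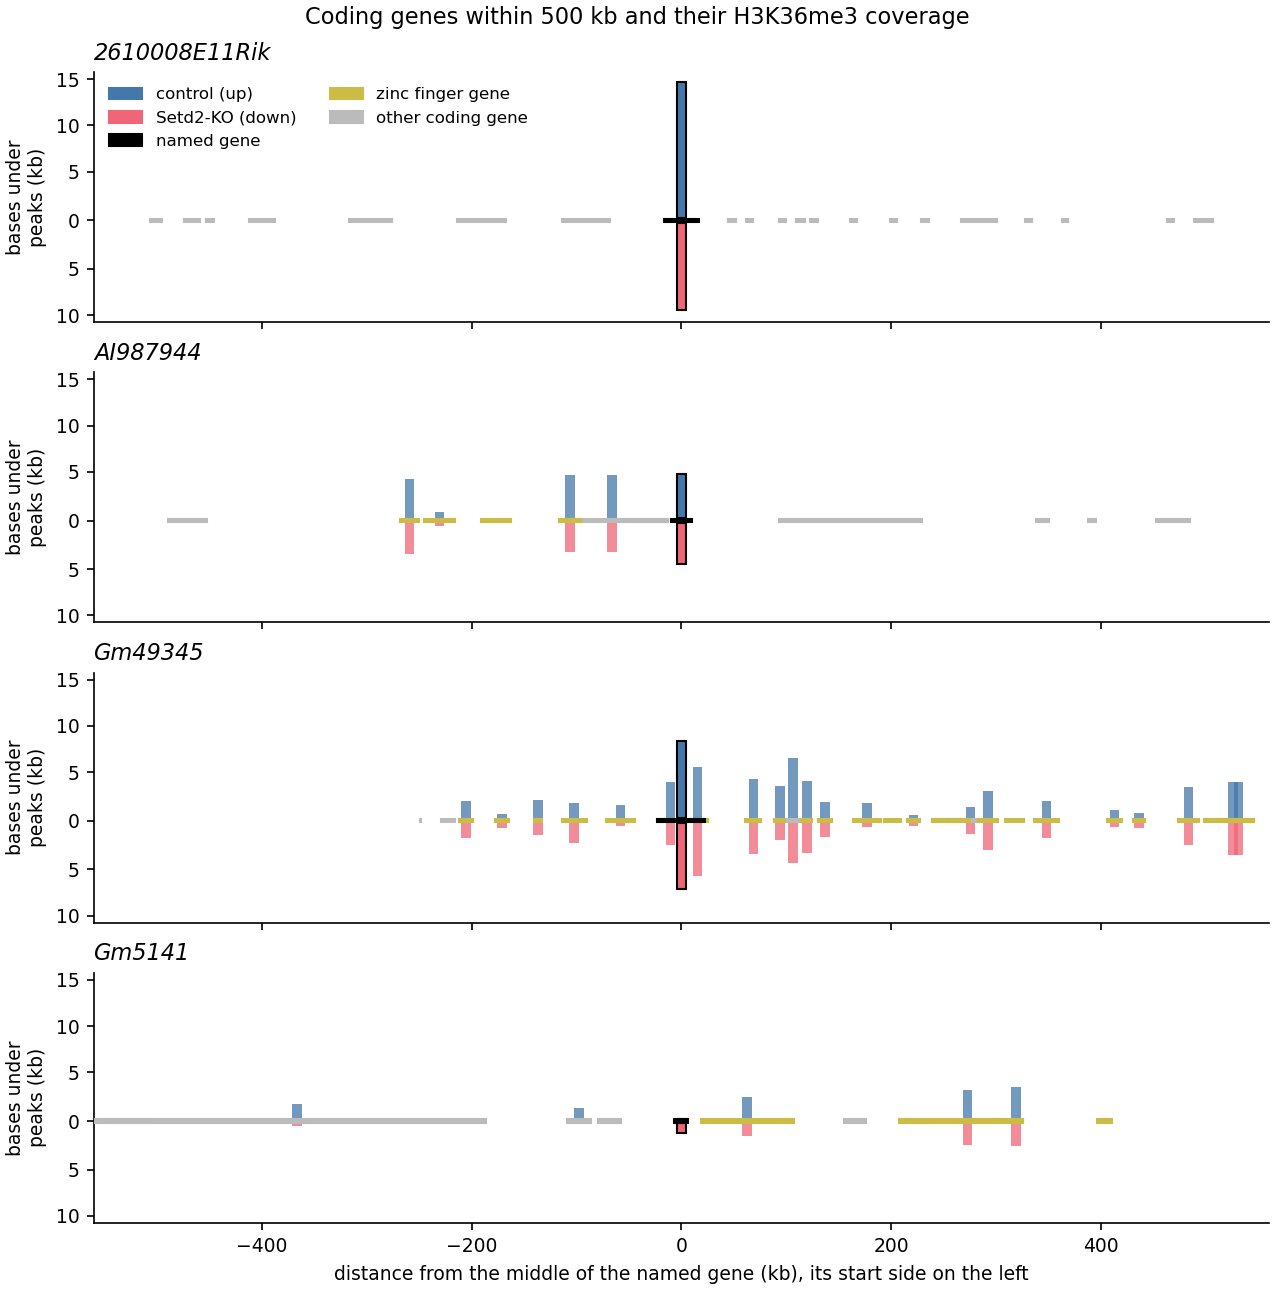
Bases under peaks (kb) in the coding genes within 500 kb of each of the 4 genes, by distance from the middle of that gene (kb), with control upward and Setd2-KO downward. Each bar stands at the middle of a gene, bars with a black edge belong to the named gene, and gene bodies are drawn on the zero line (black the named gene, yellow zinc finger genes, grey other coding genes). No neighbour of 2610008E11Rik has a bar, while 22 of 30 neighbours of Gm49345 have bars in both directions.

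The third question was how the 4 genes compare with others that have such names. Clone or predicted-gene names belonged to 2164 coding genes, and 78 of these had at least 3 C2H2 fingers. Among the 78, 18 (23.1%) had a control peak and 20 (25.6%) a Setd2-KO peak, and all 18 were among the 20. The 2 genes with a Setd2-KO peak alone were Gm5141 and Gm10778, which has 14 fingers and 313 bp under a Setd2-KO peak and is named here after its values were seen. With the 4 genes left out, 15 and 16 of 74 remained (20.3% and 21.6%). Of the 2086 clone-named genes with fewer fingers, 129 (6.18%) had a control peak and 50 (2.40%) a Setd2-KO peak, and 34.9% of the 129 were also marked in Setd2-KO PTECs.

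Within this group of 78, the 4 genes held places 1, 2 and 4 by Setd2-KO coverage, and Gm5141 fell below the tenth. Each of the 10 most covered had fewer bases under Setd2-KO than under control peaks. A630089N07Rik, with 12 fingers, had 8037 control and 5894 Setd2-KO bases under peaks, and AU041133, with 14 fingers, 6491 bp and 4089 bp. The values were 4004 bp and 3748 bp in Gm12258 and 2898 bp and 2681 bp in Gm45871. Among all clone-named genes, A630089N07Rik (5894 bp) came next below Gm49345 (7132 bp) for Setd2-KO coverage, the ranking that chose Gm49345. Gm26965 (4349 bp) and AU041133 came below AI987944 (4415 bp) in the same ranking. For fold enrichment, Gm45871 (6.29) and A630089N07Rik (6.23) came below Gm49345 (7.04). For coverage without a control peak, Gm20521 and Gm49361 (451 bp each) came below Gm5141 (1051 bp). A630089N07Rik exceeds AI987944 in coverage and is not among the 4, since AI987944 was chosen for its fold enrichment.

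**Figure D5:**
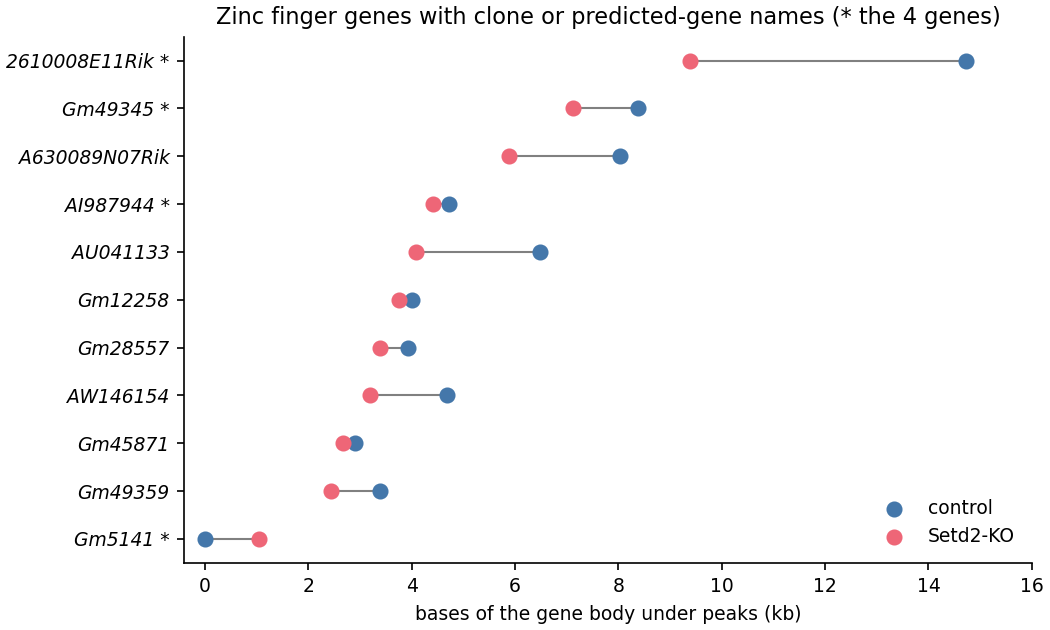
Bases of the gene body under peaks (kb) in the 10 clone-named zinc finger genes with the most Setd2-KO coverage and in Gm5141, in control (blue) and Setd2-KO PTECs (red), 1 ChIP library each. The Setd2-KO value is left of the control value in all 10 and right of it in Gm5141 alone. Asterisks mark the 4 genes described here.

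The partner proteins of KRAB zinc fingers form the last list. Their genes are not zinc finger genes, and 6 of 8 were marked in control PTECs and 1 in Setd2-KO PTECs, that is 1 of the 6 (16.7%). Over all coding genes, 19.5% and 7.37% were marked, and 34.5% of those marked in control PTECs were marked in both, and nothing particular to the partners is read from these counts. Trim28, the co-repressor that KRAB boxes bind, had 2327 bp under control peaks and 0 under Setd2-KO peaks. Setdb1, the H3K9 methyltransferase, had 2725 bp and 0. The heterochromatin protein genes Cbx1 (383 bp), Cbx3 (398 bp) and Cbx5 (598 bp) had control peaks alone. Atf7ip, whose product stabilises SETDB1, had 8 control peaks over 6992 bp and 6 Setd2-KO peaks over 3900 bp. The chromatin remodeller gene Atrx and the histone chaperone gene Daxx had no peak in either list.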

How the data were processed

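Peak lists of 2 ChIP libraries were used, 1 per genotype, each called against its own input. The submitters' processing notes name cutadapt 1.9.1, Trimmomatic 0.35 and FastQC for the reads, Bowtie2 2.2.6 for mapping on GRCm38 (mm10), and MACS2 2.1.1. The authors deposited for each peak its position, the pileup at the summit, which is the signal used here, and the fold enrichment, a ratio of pileup to local background after 1 is added to each. The −log10 q deposited for each peak, and its −log10 p, compare it with the input. The local background was recovered from pileup and fold enrichment. The read totals that the study states were not used here, and depth was taken from the background pileup alone. The labels were followed for the cells, although the authors describe the ChIP material in 1 place as kidney lesions.

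Any overlap of 1 bp with the GENCODE M21 gene body placed a peak in a gene. C2H2 fingers were counted in the longest coding sequence of each gene, translated from the RefSeq GRCm38.p6 genome, as 2 cysteines with 2 to 4 residues between them, 12 residues, and 2 histidines with 3 to 5 between them. Coding sequences stood in for the RefSeq proteins of the planned rule. Zinc finger genes were those with such a symbol or with at least 3 fingers. The same overlap made peaks of the 2 lists shared, and shares have exact (Clopper-Pearson) intervals, which cover counting error only. Words of 32 and 75 bases were counted over both strands of the primary assembly. The overlap and word counts were tested on simulated data. The 4 genes, the lists and the alternatives were chosen with earlier results of these data known. Named genes were the 4 genes, Setd2, coding genes within 100 kb of a member, up to 3 more per list in each 500 kb window, the 10 clone-named zinc finger genes with the most Setd2-KO bases, the 2 clone-named genes below the 4 in each ranking, and the KRAB partner list. Python 3.11.15 with pandas 2.3.3 and scipy 1.17.1 was used.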

Additional observations from a re-analysis of the deposited data

How the results depend on the processing

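The number of the 4 genes with a peak was 3 (control) and 4 (Setd2-KO) and stayed within 2 to 3 and 3 to 4 under the 8 alternatives tried. Gm5141 lost its Setd2-KO peaks where a fold enrichment of at least 5 or 90% unique 32-base words were required, and Gm49345 lost all peaks in both lists where bases inside other coding genes were left out, which follows from its overlap with Zfp729a and Zfp729b. The share of control peaks with a Setd2-KO partner was 83.3% (25 of 30) when a Setd2-KO peak within 1 kb counted, beside 63.3%, and between 53.3% and 61.1% under the 4 other alternatives. Within 1 Mb, 50 neighbours had a control peak, beside 32 within 500 kb, as more genes were counted. Of the 50, 14 were neighbours of 2610008E11Rik, which had 0 such neighbours within 500 kb. Setd2-KO covered more bases than control in AI987944 at a fold enrichment of at least 4 (3763 bp and 3562 bp) and with unique 32-base words (545 bp and 396 bp), and in Gm49345 at a fold enrichment of at least 5 (5934 bp and 4839 bp) and with unique 32-base words (2761 bp and 2367 bp), against the order in the full lists. 2610008E11Rik had more control than Setd2-KO bases under every alternative run, but at a fold enrichment of at least 5 the bases were nearly equal (6657 bp and 6489 bp) and the number of peaks reversed, from 17 and 9 to 3 and 5. The alternative with 75-base words was added after seeing the data. No paired analysis was possible because each genotype had 1 ChIP library. With 1 library per genotype, neither the spread between animals nor a signal under the peak caller's limit could be measured.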
